A study of Mus musculus with 30 samples.

Results

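The inflamed skin of D6-deficient (KO) mice at day 2 was compared with the inflamed skin of wild type (WT) mice at day 4 after the last of 3 applications of the phorbol ester TPA. The question was which transcripts of KO day 2 skin were at the level that WT skin had at day 4, and which were at a level that WT day 4 skin did not have. The comparison used 6 of the 30 arrays of the series, the 3 of KO day 2 and the 3 of WT day 4, and all 36029 probe sets that passed a filter on dim signals. All mice were female, of mixed 129–C57BL/6 background and 8 to 12 weeks old. The shaved backs of the mice of both groups were painted 3 times, 24 h apart, with 50 µM TPA in acetone, which inflames the skin, and the whole back skin was then taken 2 or 4 days later. The KO mice lacked D6 and the WT mice carried it, and the arrays of a group are labelled as biological replicates. Day 0 skin, used below as the baseline of each genotype, came from mice treated with acetone according to the methods, although the titles of those arrays call them untreated. Because the groups differed in both genotype and day, the contributions of genotype and day to a difference between these 6 arrays cannot be told apart from them alone.

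D6, the product of the gene that the array lists as Ccbp2, is an atypical chemokine receptor that takes up and degrades inflammatory CC chemokines without signaling for migration. In skin, TPA induces chemokines and cytokines in keratinocytes and resident cells, and neutrophils, monocytes and T cells enter the tissue while the epidermis thickens. Type I interferons act through a receptor that activates transcription factors, and these bind interferon-stimulated response elements in the promoters of antiviral genes.

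The D6 gene was measured by 3 probe sets (GRCm38.p6, chr9:121898355-121911075). With the probe set that differed most, log2 intensities were 3.40, 3.43 and 3.56 in KO day 2 skin and 5.76, 5.08 and 5.48 in WT day 4 skin. The KO arrays lay below the WT arrays without overlap, and the difference of the log2 means was -1.98 (SE 0.25, adjusted p = 5.5e-06). The differences were smaller with the other probe sets, being -1.04 with the second and -0.67 with the brightest (adjusted p = 0.077). The labelled tissue was borne out by the keratinocyte markers Krt5, Krt14, Krt1 and Krt10, whose summed intensity was 49862.5 to 51507.2 in KO day 2 skin and 19258.8 to 24423.2 in WT day 4 skin. Arrays of the same group correlated at 0.990 or more over all probe sets and arrays of the opposite groups at 0.971 to 0.985.

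Below, a probe set is called when the difference KO day 2 minus WT day 4 had an adjusted p under 0.05 in the limma fit and exceeded 3-fold. By this rule 373 probe sets (1.04%) were called, 211 higher (0.586%) and 162 lower (0.45%) in KO day 2 skin. The adjusted p alone was under 0.05 for 4468 probe sets (12.4%). Levels are called matched where the 95% interval of the difference lay within 2-fold either way, which held for 31928 probe sets (88.6%), and within 1.5-fold for 62.5%. To look at the day and the genotype in 6 other arrays, the difference KO day 4 minus WT day 2 was added after the data had been seen. In it the days are exchanged between the genotypes. A transcript that differs only by day has opposite signs in the 2 differences, and one that differs only by genotype has the same sign. Where both contribute, the signs do not set them apart. Spink12 had opposite signs (5.86 and -2.76), although its day 2 means were 10.31 in KO and 7.71 in WT skin.

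Of the 211 probe sets that were higher in KO day 2 skin, 84 (39.8%) were called lower with the days exchanged, 10 (4.74%) were called higher again, and 117 were not called. Of the 162 that were lower, 70 (43.2%) were called in the opposite direction with the days exchanged, 12 (7.41%) in the same direction, and 80 were not called. Over all tested probe sets, 353 (0.98%) were called higher and 390 (1.08%) lower in KO day 4 skin relative to WT day 2 skin. The opposite calls thus outnumbered the calls of the same direction among the probe sets that were higher and among those that were lower. The 10 that were higher again belonged to Rsad2 (2 probe sets), Ifi44, Isg15, Ifit1, Oasl2, Irg1, BC018473, Cxcl2 and a probe set without a symbol. Rsad2, Ifi44, Isg15, Ifit1 and Oasl2 are interferon-stimulated genes, Irg1 makes itaconate in activated macrophages, and Cxcl2 is a neutrophil chemokine. At day 0 the mean of BC018473 was already 7.17 in KO and 3.92 in WT skin.

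**Figure D1:**
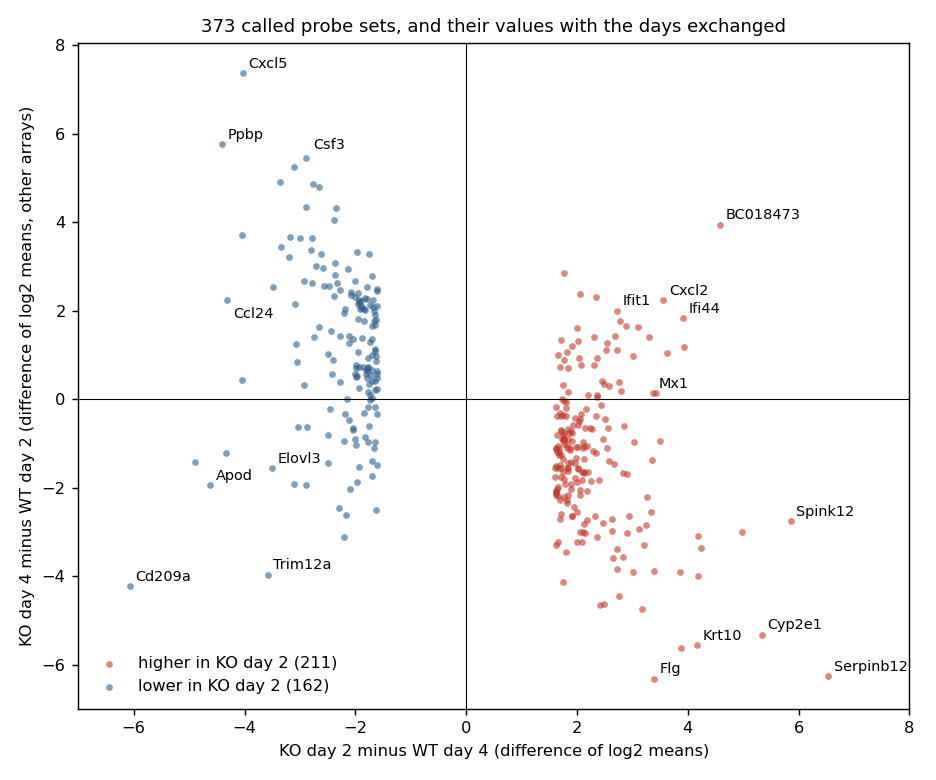
Each point is 1 of the 373 called probe sets, red where higher (211) and blue where lower (162) in KO day 2 skin. The x axis gives KO day 2 minus WT day 4 and the y axis KO day 4 minus WT day 2, both as differences of log2 means over 3 arrays a group. Most red points lie below 0 and most blue points above 0 on the y axis, the direction of a difference between days, while Ifit1, Ifi44, Cxcl2 and BC018473 lie above 0 on both axes and Cd209a and Trim12a below 0 on both.

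Among the gene lists, the interferon-stimulated genes, which are the longest list, had the most members called above the level of WT day 4 skin. Of the 40 genes of the list, all measured, 13 were called higher and 0 lower in KO day 2 skin, where 0.586% of all probe sets were called higher, and 33 were higher at an adjusted p under 0.05 whatever the fold. The median difference over the list was 1.07 on the log2 scale, against -0.02 over all tested probe sets. The short melanocyte list had a larger median, 1.43, with 3 of 9 genes called higher. Some of the interferon-stimulated genes, Ifit1, Rsad2 and Irf7 among them, were named by the study from these same arrays. The count of 13 is therefore not independent evidence of the direction. The called genes were Ifi44 (3.92), Ifit2 (3.42), Mx1 (3.37), Ifit3 (3.01), Rsad2 (2.88), Ifit1 (2.72), Usp18 (2.53), Cmpk2 (2.48), Irf7 (2.31), Isg15 (2.06), Oasl2 (1.99), Oas1a (1.91) and Ddx60 (1.73), with the log2 difference of each in parentheses. They encode antiviral effectors that bind or degrade viral RNA or block replication, the ubiquitin-like Isg15 with its protease Usp18, and Irf7, a factor that itself drives the transcription of type I interferon genes.

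Promoters of 4 genes that were called higher are shown because a short element that interferon-activated factors bind can be read in them. The window is the 250 bases before the transcription start in RefSeq (GRCm38.p6), written 5′ to 3′ on the strand of the gene, and the capitals mark each match to GAAA, any 2 bases and GAAA again, on either strand, where overlapping matches run together. Ifit1 lies on the plus strand (chr19:34640639-34640888) with 2 matches, Rsad2 on the minus strand (chr12:26456453-26456702) with 1, Isg15 on the minus strand (chr4:156200819-156201068) with 3 that overlap, and Cxcl10, a chemokine gene described below, on the minus strand (chr5:92348890-92349139) with 1.
Ifit1: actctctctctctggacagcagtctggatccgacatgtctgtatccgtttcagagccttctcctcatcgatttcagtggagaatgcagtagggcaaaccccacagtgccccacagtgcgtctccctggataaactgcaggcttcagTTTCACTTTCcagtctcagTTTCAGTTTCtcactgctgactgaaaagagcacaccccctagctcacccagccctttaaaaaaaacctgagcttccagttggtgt
Rsad2: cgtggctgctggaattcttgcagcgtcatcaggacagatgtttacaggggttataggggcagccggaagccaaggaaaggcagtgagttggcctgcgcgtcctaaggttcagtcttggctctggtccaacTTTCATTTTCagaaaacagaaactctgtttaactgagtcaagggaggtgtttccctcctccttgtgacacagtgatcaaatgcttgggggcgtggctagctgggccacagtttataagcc
Isg15: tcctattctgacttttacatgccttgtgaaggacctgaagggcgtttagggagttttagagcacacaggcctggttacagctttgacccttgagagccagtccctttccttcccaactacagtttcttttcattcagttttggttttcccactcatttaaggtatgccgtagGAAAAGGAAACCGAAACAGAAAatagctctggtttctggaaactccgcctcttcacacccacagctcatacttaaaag
Cxcl10: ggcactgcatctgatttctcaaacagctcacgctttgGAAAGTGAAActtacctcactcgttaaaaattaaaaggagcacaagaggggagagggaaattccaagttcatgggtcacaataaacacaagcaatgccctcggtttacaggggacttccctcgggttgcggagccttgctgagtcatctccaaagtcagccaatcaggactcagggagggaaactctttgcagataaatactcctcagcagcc

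The element was present in 978 of the 32851 promoters in the table (2.98%). Promoters were matched for 29 of the 40 interferon-stimulated genes, and 11 of these (37.9%) held it. It was present in 6 of the 11 matched promoters of genes that were called higher (54.5%) and in 5 of the 18 of genes that were not (27.8%). These matches describe letters in a window and were not tested for binding.

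The levels of Ifit1, an RNA-binding antiviral protein, were 10.50, 10.22 and 10.96 on the 3 KO day 2 arrays and 8.16, 7.60 and 7.77 on the 3 WT day 4 arrays (log2 intensity). The groups did not overlap and the difference was 6.58-fold (log2 2.72, SE 0.36, adjusted p = 1.1e-05). With the days exchanged, Ifit1 was 9.35, 8.46 and 8.65 in KO day 4 skin and 6.77, 6.46 and 7.25 in WT day 2 skin, again higher on all KO arrays. Rsad2, the antiviral enzyme viperin, was 11.45, 11.29 and 11.60 in KO day 2 skin and 8.78, 8.20 and 8.71 in WT day 4 skin (log2 difference 2.88, SE 0.28, adjusted p = 2.2e-07), and all 3 of its probe sets were called higher. Irf7 was 10.87, 10.04 and 11.03 in KO day 2 skin and 8.50, 8.05 and 8.45 in WT day 4 skin (log2 difference 2.31, SE 0.24, adjusted p = 5.2e-07). Isg15, whose probe set is shared with Gm9706, was 10.53, 10.14 and 10.91 against 8.67, 8.07 and 8.67 (log2 difference 2.06, SE 0.23, adjusted p = 1.6e-06). In each of these genes the lowest KO day 2 array was above the highest WT day 4 array. Mx1, an antiviral GTPase, was 8.90, 8.00 and 8.72 in KO day 2 skin and 5.45, 5.24 and 4.83 in WT day 4 skin (log2 difference 3.37, SE 0.24, adjusted p = 2.7e-09).

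For all 13 called genes, the 3 KO day 2 arrays lay above all 15 WT arrays of days 0, 1, 2, 4 and 6. The calls used the 3 WT day 4 arrays among these 15, and the same held for 69 of the 211 probe sets called higher (32.7%). It held for 31 of the 40 listed genes (77.5%) and for 586 of all tested probe sets (1.63%). This count was also added after the data had been seen. Relative to day 0 of the same genotype, the median change of the list was 1.92 in KO skin at day 2 and 0.83 at day 4, and -0.38 in WT skin at day 2 and 0.19 at day 4. The change from day 2 to day 4 was called lower in KO than in WT skin for 16 of the 40 genes, and for 0.25% of all probe sets, while 0.0278% were called higher. KO skin thus carried the list at a higher level at day 2 than at day 4.

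**Figure D2:**
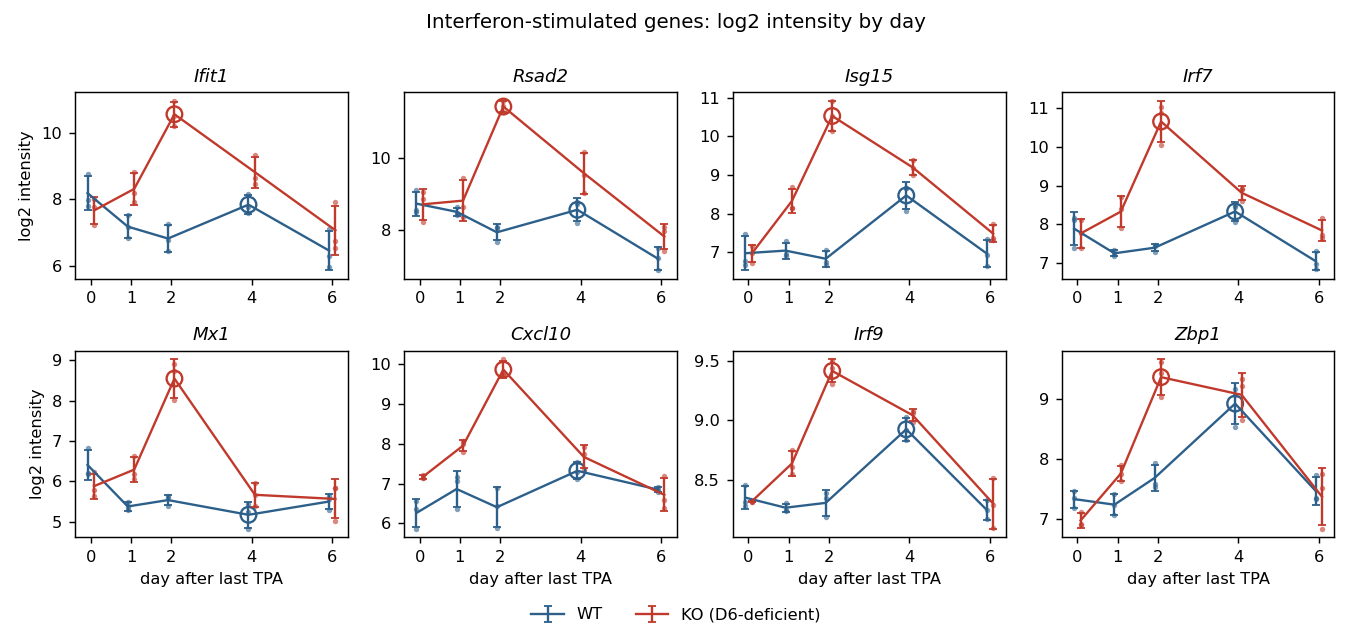
Log2 intensity of 8 genes against the day after the last TPA application, in WT (blue) and KO (red) skin. Points are arrays, lines join the means of 3 arrays, bars are SD, and rings mark KO day 2 and WT day 4. Ifit1, Rsad2, Isg15, Irf7, Mx1 and Cxcl10 stood above every WT mean at KO day 2, whereas Irf9 and Zbp1 differed less between the ringed groups (0.49 and 0.44 on the log2 scale; the axes differ between panels).

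Not all interferon-stimulated genes behaved in this way. Matched levels were found for 9 of the 40 genes (Irf9, Zbp1, Ifi35, Adar, Bst2, Ifi204, Trim30a and Ifitm3 among them), against 88.6% of all probe sets. Some of the 9 were also among the 33 that were higher at an adjusted p under 0.05, since a difference within 2-fold can still pass that limit. Zbp1, a sensor of Z-form nucleic acids, was 9.44, 9.05 and 9.63 in KO day 2 skin and 9.17, 8.54 and 9.07 in WT day 4 skin. These overlapped (log2 difference 0.44, 95% interval 0.01 to 0.88, adjusted p = 0.19), and both groups lay above WT day 2 skin, at 7.58, 7.53 and 7.94. Oasl1, an antiviral protein related to oligoadenylate synthetases, was in between, at 9.08, 8.38 and 8.75 against 7.92, 7.13 and 7.58 (log2 difference 1.19, SE 0.26, adjusted p = 0.003). The interferon-induced GTPases, which act on intracellular pathogens and respond strongly to interferon-γ, had a median difference of 0.18, with 0 of 11 measured genes called, but 2 were higher at an adjusted p under 0.05, and for 5 (45.5%) the KO day 2 arrays lay above all 15 WT arrays. The list of interferons and their receptors also held the signaling genes Irf1, Irf3, Irf5, Irf8, Jak1, Tyk2 and Socs1. None of its 14 measured genes was called (median difference -0.06), all 14 had matched levels, and 1 was lower at an adjusted p under 0.05. Ifng and Ifna4 were left out as dim, and no probe set was matched for Ifnk and Il28b. At an unadjusted p under 0.05, 9229 probe sets (25.6%) differed over the whole array.

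The chemokines divided into genes above, at and below the WT day 4 level. Of the chemokines that bind CXCR3 on T cells, Cxcl10 was 9.73, 9.75 and 10.12 in KO day 2 skin and 7.54, 7.30 and 7.11 in WT day 4 skin (5.84-fold, log2 2.55, SE 0.24, adjusted p = 1.2e-07). Its levels in KO day 4 skin, 7.91, 7.35 and 7.75, had come down to near those of WT day 4 skin. Cxcl9, the neighboring gene, was 9.24, 9.69 and 9.71 against 11.20, 9.58 and 9.66, with overlap (log2 difference -0.60, SE 0.40, adjusted p = 0.38). Its highest levels were those of KO day 4 skin, at 11.57, 12.69 and 12.19. Among the 4 genes of this list 1 was called higher and 0 lower.

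Of the 6 measured genes of the neutrophil-attracting CXC group, 1 was called higher and 3 lower. Cxcl1, Cxcl2, Cxcl3, Cxcl5 and Ppbp are neighbors on chr 5 (GRCm38.p6, from 90759298, the start of Cxcl5, to 90905938, the end of Cxcl2) and their products bind Cxcr2. Cxcl2 was 12.03, 12.32 and 11.61 in KO day 2 skin and 8.34, 7.65 and 9.30 in WT day 4 skin, without overlap (11.8-fold, log2 3.56, SE 0.66, adjusted p = 0.00059). It stayed high in KO day 4 skin (10.58, 10.91 and 9.95), and the change from day 0 was not called (difference of the changes 2.32, adjusted p = 0.15). Cxcl3 was 9.43, 10.06 and 8.72 against 9.08, 8.16 and 10.17, with overlap (log2 difference 0.26, 95% interval -0.82 to 1.35, adjusted p = 0.81), whereas in WT day 2 skin it was 4.67, 6.67 and 3.55. Cxcl5 was lower, at 8.25, 6.72 and 7.38 against 11.60, 11.04 and 11.82 (log2 difference -4.03, SE 0.36, adjusted p = 7.7e-08), and so was Ppbp, at 4.99, 5.37 and 5.02 against 9.68, 8.53 and 10.38 (log2 difference -4.40, SE 0.27, adjusted p = 1.9e-10). Cxcl1 was 9.17, 8.93 and 8.70 against 12.09, 11.17 and 12.21 (log2 difference -2.89, SE 0.28, adjusted p = 1.7e-07, 2 of 3 probe sets called). Neighboring genes of this cluster thus stood above and below the WT day 4 level in the same KO day 2 skins. The interval of Cxcl3 was too wide to call its level matched, and 0 of the 6 measured genes had a matched level. The KO day 4 arrays of Cxcl5, Ppbp and Cxcl1 all lay above the lowest WT day 4 array, Cxcl5 at 11.99, 12.12 and 11.92.

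The inflammatory CC chemokines, of which many bind D6, had a median difference of -0.80, with 0 of 14 genes called higher and 4 lower. Ccl24, an eosinophil attractant, was 7.68, 7.09 and 6.79 in KO day 2 skin and 12.01, 11.01 and 11.47 in WT day 4 skin (log2 difference -4.31, SE 0.45, adjusted p = 5.1e-07). Ccl22, a ligand of Ccr4, was 6.24, 5.68 and 5.98 against 9.65, 9.61 and 9.11 (log2 difference -3.49, SE 0.26, adjusted p = 3.3e-09). Ccl7 (-1.76, adjusted p = 0.00041) and Ccl17 (-1.94, adjusted p = 0.0023) were also called lower. The called CC chemokines attract monocytes, eosinophils and T cells, and in each of them the KO day 2 arrays lay below the WT day 4 arrays. Ccl3 and Ccl2 lay just short of the threshold of 3-fold. Ccl3, a chemokine of activated macrophages, was 9.51, 9.82 and 9.25 against 7.57, 7.95 and 8.33 (log2 difference 1.58, SE 0.44, adjusted p = 0.019), and Ccl2, a monocyte attractant, was lower by 2.84-fold (log2 difference -1.51, SE 0.23, adjusted p = 5.8e-05). Ccl4 was at a matched level, 9.18, 10.03 and 9.32 against 8.73, 9.08 and 9.45, and was 5.65, 6.97 and 6.07 in WT day 2 skin. Of 11 chemokine receptors of leukocytes, Ccr7, which guides dendritic cells and T cells to lymph nodes, was called lower, at 5.39, 5.69 and 5.53 against 9.04, 8.57 and 9.01 (log2 difference -3.34, SE 0.22, adjusted p = 5.4e-10).

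Among the cytokines of the IL-1 and IL-6 families, 0 of 16 were called higher and 2 lower, and 8 had matched levels. Il1b, which activates endothelium and drives neutrophil entry, was 12.11, 12.05 and 11.52 in KO day 2 skin and 11.70, 11.79 and 11.84 in WT day 4 skin (log2 difference 0.12, 95% interval -0.54 to 0.78, adjusted p = 0.87), and 9.88, 11.17 and 9.39 in WT day 2 skin. Il1b in KO day 2 skin was thus at a matched level with WT day 4 skin, its arrays lying on either side of the WT day 4 range. On every KO day 2 array it was above the WT day 2 skins. Il6, a pleiotropic inflammatory cytokine, was 7.13, 7.10 and 6.95 against 10.15, 9.60 and 10.76 (log2 difference -3.11, SE 0.39, adjusted p = 5.4e-06), and 11.80, 11.22 and 10.47 in KO day 4 skin. The IL-1 receptor gene Il1r1 was also lower (-1.65, adjusted p = 1.9e-08). In the IL-17, IL-22 and IL-20 axis, 1 of 14 genes was called, Il24, a keratinocyte cytokine of the IL-20 group (-2.38, SE 0.27, adjusted p = 2e-06). Csf3, the growth factor of neutrophils, was 4.85, 5.36 and 4.23 against 7.96, 6.92 and 8.21 (log2 difference -2.89, SE 0.26, adjusted p = 6.1e-08). Of 12 genes for EGF receptor ligands and prostaglandin enzymes none was called (median difference -0.36).

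**Figure D3:**
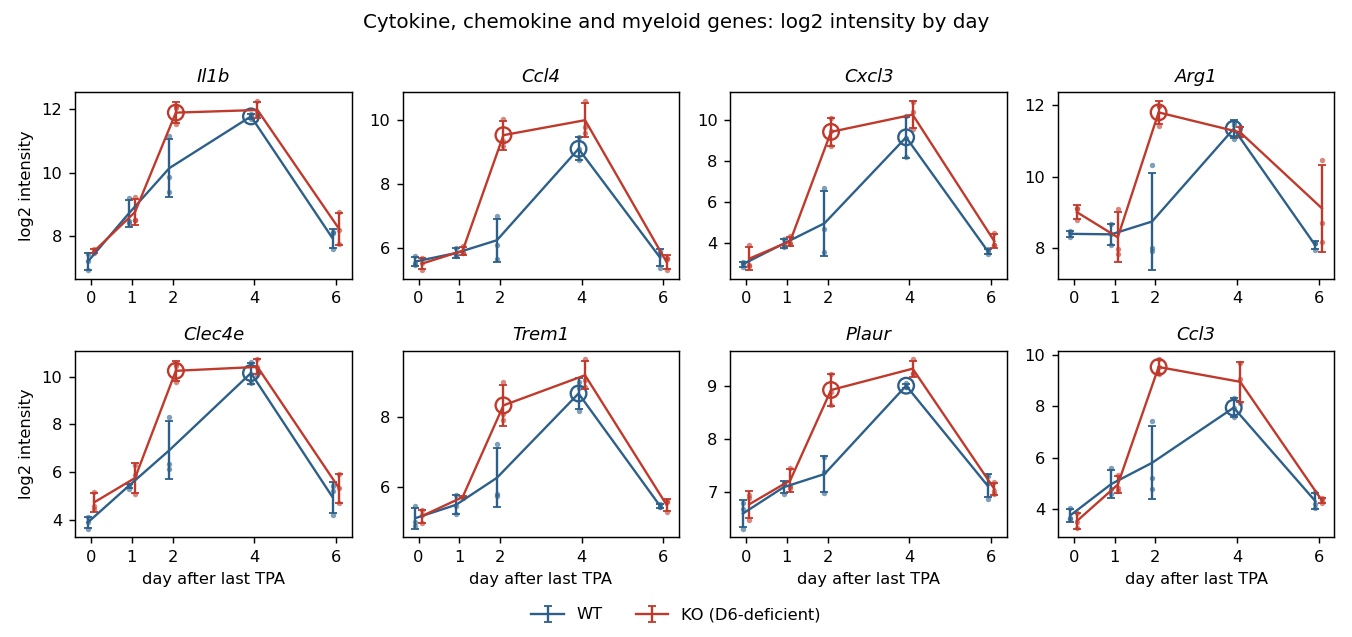
Log2 intensity of 8 cytokine, chemokine and myeloid genes against the day after the last TPA application, in WT (blue) and KO (red) skin. Points are arrays, lines join the means of 3 arrays, bars are SD, and rings mark KO day 2 and WT day 4. At day 2 the KO mean of each gene was above the WT mean, and the ringed means were close to each other except for Ccl3, which was higher at KO day 2 (log2 difference 1.58).

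Late TPA response genes were collected without the 6 compared arrays. A set of 554 probe sets was called higher in KO day 4 skin relative to KO day 0 skin (1.97% of all probe sets were) and not called higher in WT day 2 skin relative to WT day 0 skin (1.2% were). In KO day 2 skin 187 of them (33.8%) were at a matched level with WT day 4 skin, a smaller share than the 88.6% of all probe sets. Of the 554, 7 (1.26%) were called higher and 62 (11.2%) lower, against 0.586% and 0.45% of all probe sets. Of the 187, 97 were called higher in KO day 2 skin relative to its own day 0. Relative to WT day 2 skin, only 19 of the 187 were called higher in KO day 2 skin (0.411% of all probe sets were). At an adjusted p under 0.05 whatever the fold, 103 of them were higher, where 4.45% of all probe sets differed either way. The KO day 0 and WT day 2 arrays had also served to choose the set, so the counts against these arrays are not independent of that choice. The 187 included Ccl4, Trem1, which amplifies neutrophil and monocyte activation, Clec4e, a receptor for mycobacterial glycolipid and dead cells, Plaur, the urokinase receptor, Cd14, Osm, and Mmp10, a stromelysin of wounded epidermis. Clec4e was 10.53, 10.44 and 9.77 in KO day 2 skin and 10.10, 9.74 and 10.62 in WT day 4 skin, and 6.32, 8.32 and 6.11 in WT day 2 skin (log2 difference KO day 2 minus WT day 4 0.09, 95% interval -0.80 to 0.99). Plaur was 8.89, 9.23 and 8.64 against 9.05, 8.98 and 8.98, and 6.98, 7.66 and 7.36 in WT day 2 skin. The KO day 2 arrays of both genes were above all WT day 2 arrays and overlapped the WT day 4 arrays. Genes of the 187 named here were among the 12 with the largest change at KO day 4.

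Of the 62 late probe sets that were lower, the members with the largest changes included Ppbp, Ccl24, Krt75, Ccl22, Ptx3, Ccr7, Cxcl13, Il1rl1, Cxcl1, Csf3, Il13ra2, Il24, Tnc and Il4ra. They cover chemokines, the pentraxin Ptx3, keratin 75 of the hair follicle companion layer, tenascin C of wound matrix, and receptors for IL-33, IL-13 and IL-4. The 7 late probe sets that were higher were those of Reg1, Camp, Isg15, Pyhin1, Ltf, Klra20 and Fam26f. Named from their values, Ltf and Camp are granule proteins of maturing neutrophils, and Isg15 and Pyhin1 are interferon-stimulated.

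From the day 0 skins of each genotype, 613 probe sets (1.7%) were called higher in KO day 2 skin and 635 (1.76%) in WT day 4 skin. The 318 shared by both were 51.9% of the KO list and 50.1% of the WT list, and 114 of the 318 had matched levels. Fewer were shared among those lower than at day 0, where 564 (1.57%) were called in KO day 2 skin and 534 (1.48%) in WT day 4 skin, and the 211 in both were 37.4% and 39.5% of these lists. The differences of the changes from day 0 gave 442 called probe sets (1.23%), 258 higher and 184 lower, and 140 of the 211 and 110 of the 162 called in the direct comparison were also called in it.

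Genes of the neutrophil program did not move as a group. Of 25 measured genes, 2 were called higher (Ltf and Camp) and 1 lower (Csf3), the median difference was -0.02, and 5 had matched levels. The calprotectin subunits S100a8 and S100a9 were near the top of the intensity range in all 6 arrays, S100a8 at 14.50, 14.20 and 14.26 against 14.34, 14.19 and 14.48. Camp, the cathelicidin precursor, was 7.86, 9.52 and 10.76 in KO day 2 skin and 7.34, 7.29 and 7.44 in WT day 4 skin (log2 difference 2.02, SE 0.60, adjusted p = 0.027). Ltf, lactotransferrin, was 6.23, 8.64 and 9.87 against 5.76, 4.91 and 6.04 (log2 difference 2.68, SE 0.72, adjusted p = 0.015), and Ngp, neutrophilic granule protein, was 8.75, 11.09 and 11.87 against 8.66, 6.80 and 9.29 (log2 difference 2.32, SE 0.80, adjusted p = 0.059). In all 3 genes the same KO day 2 array was lowest and the same was highest, and without the highest array neither Camp (1.33, adjusted p = 0.20) nor Ltf (1.87, adjusted p = 0.13) passed the test. The number of neutrophil genes called higher went from 2 to between 0 and 4 when single arrays were left out, being 4 without the first KO day 2 array, and was 0 when only the 6 arrays were fitted. In whole skin, fewer cells of a type and less RNA per cell cannot be told apart.

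The monocyte and macrophage list had a median difference of 0.18, with 1 of 20 genes called higher, Vsig4, a complement receptor of resident macrophages. It was 6.74, 7.11 and 6.99 in KO day 2 skin and 3.90, 5.10 and 5.03 in WT day 4 skin (log2 difference 2.27, SE 0.45, adjusted p = 0.0012). Arg1, the arginase of alternatively activated macrophages, was 11.43, 11.98 and 11.99 against 11.52, 11.05 and 11.46 (log2 difference 0.46, 95% interval -0.54 to 1.45). The summed intensity of the macrophage markers Cd68, Csf1r, Emr1 and Lyz2 was 25884.7 to 27747.9 in KO day 2 skin and 11070.7 to 15921.5 in WT day 4 skin, 3 of the 4 being higher at an adjusted p under 0.05. Over the list of 20, 4 genes were higher (Vsig4, Lyz2, Csf1r and Emr1) and 4 lower (Cd163, Mrc1, Adam8 and Il10) at an adjusted p under 0.05, among them the scavenger receptor Cd163 at -1.43 and the mannose receptor Mrc1 at -1.19. Of 23 complement and sensor genes 1 was called higher, Tlr7, the endosomal receptor for single-stranded RNA, at 8.12, 8.32 and 8.46 against 6.26, 6.32 and 6.26 (log2 difference 2.02, SE 0.19, adjusted p = 1.7e-07). The other 2 probe sets of Tlr7 were not called, and the mean of the 3 differed by 1.37. For 8 of the 23 genes of this list the KO day 2 arrays lay above all 15 WT arrays. Among 25 T cell and NK cell genes, 16 dendritic cell and MHC class II genes, 12 MHC class I genes and 9 mast cell genes none was called, with median differences of -0.01, 0.37, 0.16 and 0.52. The summed T cell markers were 2143 to 2762 in KO day 2 skin and 2603 to 3193 in WT day 4 skin.

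**Figure D4:**
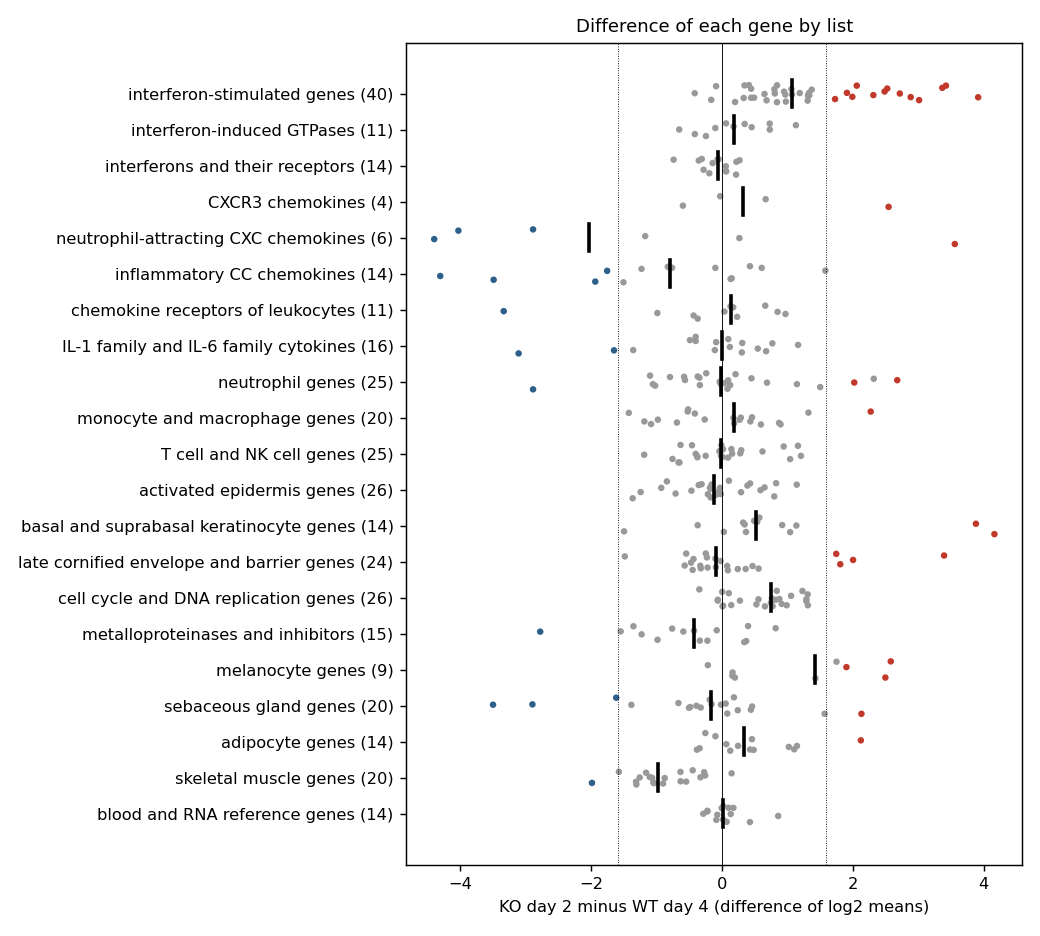
The x axis gives KO day 2 minus WT day 4 as the difference of log2 means of 3 arrays a group, and each point is 1 gene of the list named at the left, with the number of measured genes in parentheses. Red and blue points were called higher and lower, bars are list medians and dotted lines mark 3-fold. The interferon-stimulated genes (median 1.07) and the melanocyte genes (median 1.43) lie mostly to the right of 0. The skeletal muscle genes lie to the left (median -0.97), and most other lists spread on both sides of 0.

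In the epidermis, Krt10, Krt1 and Flg were far higher in KO day 2 skin, while most other keratinocyte and barrier genes were not called. Of 26 activated epidermis genes none was called (median difference -0.13, range -1.37 to 1.14), 1 was higher and 2 were lower at an adjusted p under 0.05, and 5 (19.2%) had matched levels against 88.6% of all probe sets, while the median of the list was 4.63 above day 0 in KO day 2 skin and 5.64 in WT day 4 skin. Krt6a, a keratin of wounded epidermis, was 13.85, 13.87 and 13.85 against 13.74, 13.69 and 13.84. Krt10, the keratin of the suprabasal layers, was 13.61, 13.48 and 13.48 in KO day 2 skin and 8.80, 11.07 and 8.21 in WT day 4 skin (17.9-fold, log2 4.16, SE 0.42, adjusted p = 3.2e-07). Its partner Krt1 was 13.28, 12.81 and 12.95 against 8.84, 10.54 and 8.03 (log2 difference 3.88, SE 0.48, adjusted p = 5.5e-06). Flg, filaggrin of the granular layer, was 11.22, 10.75 and 10.81 against 7.53, 9.02 and 6.04 (log2 difference 3.39, SE 0.51, adjusted p = 5.2e-05). In these 3 genes the second WT day 4 array was the highest of its group and was still below all KO day 2 arrays. Of the 14 keratinocyte genes only Krt10 and Krt1 were called, and the median difference was 0.51. The basal keratins differed less, Krt5 by 0.92 (adjusted p = 5.3e-05) and Krt14 by 0.49 (adjusted p = 0.04).

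Krt10, Krt1 and the called barrier genes were all called in the opposite direction with the days exchanged. Krt10 was 13.99, 13.81 and 13.89 in WT day 2 skin and 7.55, 9.18 and 8.28 in KO day 4 skin, and Flg was 11.98, 11.45 and 12.28 in WT day 2 skin and 4.62, 6.01 and 6.13 in KO day 4 skin. Both genotypes were thus high at day 2 and low at day 4. In the barrier list, Flg, Casp14 (2.00), Rptn (1.81) and Lor (1.75, but 1.20 with adjusted p = 0.14 without the third WT day 4 array) were called higher out of 24 genes, and 10 of the 24 were called lower in KO day 4 skin than in WT day 2 skin. The median difference of the barrier list was -0.10, 14 of its genes had matched levels, and Lce1l (-1.49, adjusted p = 0.0066) and Klk7 (-0.57, adjusted p = 0.045), a protease of corneocyte shedding, were lower. Serpinb12, a serine protease inhibitor of surface epithelia, had the largest measured difference, at 10.15, 10.85 and 10.48 in KO day 2 skin and 3.94, 4.02 and 3.91 in WT day 4 skin (log2 difference 6.54, SE 0.40, adjusted p = 1.9e-10). The WT day 4 values were near the lowest mean kept by the filter, 3.72, and were not shown to be above background, so that the size is a lower bound for this probe set. With the same probe set, Serpinb12 was 10.14, 10.31 and 9.72 in WT day 2 skin and 3.44, 3.95 and 4.00 in KO day 4 skin. Another probe set of Serpinb12 was also called higher, but by 3.33 (mean 7.86 in KO day 2 and 4.53 in WT day 4 skin). Spink12, a Kazal-type protease inhibitor, was 9.48, 10.95 and 10.50 against 4.41, 4.93 and 4.02 (log2 difference 5.86), and 6.89, 9.07 and 7.18 in WT day 2 skin. The other large differences were those of Cyp2e1 (5.34), Nnat (4.98), BC018473 (4.59), Fetub (4.24), Tmprss11a (4.18), C1qtnf3 (4.18) and Gm14446 (3.93). With the days exchanged, Cyp2e1, Nnat, Fetub, Tmprss11a and C1qtnf3 were called lower, BC018473 was called higher and Gm14446 was not called. The day 0 means were 7.17 in KO and 3.92 in WT skin for BC018473, and 9.76 and 7.36 for Nnat. The difference of the changes from day 0 was called neither for BC018473 (1.34, adjusted p = 0.67) nor for Nnat (2.59, adjusted p = 0.27). Timp1, an inhibitor of metalloproteinases, was lower, at 11.16, 9.44 and 10.02 against 13.03, 12.83 and 13.09 (log2 difference -2.78, SE 0.33, adjusted p = 2.7e-06). None of the 26 cell cycle genes was called (median difference 0.75, 6 higher at an adjusted p under 0.05), but 3 were called higher without the second WT day 4 array.

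**Figure D5:**
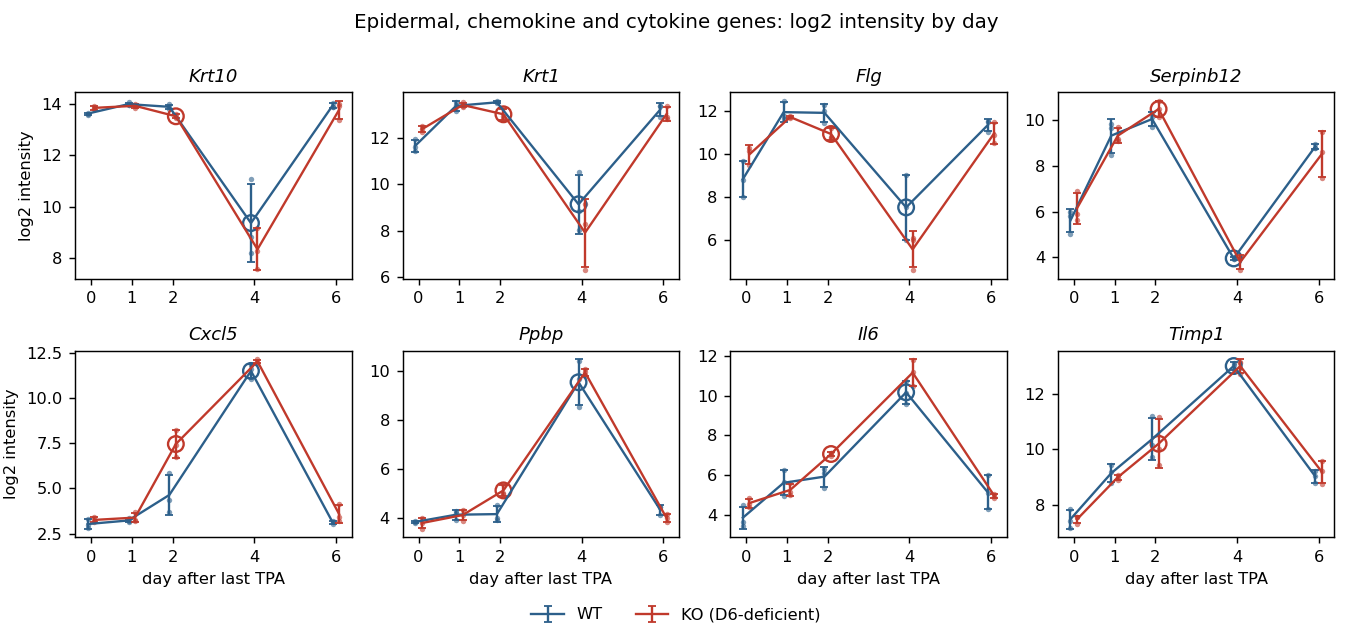
Log2 intensity of 8 epidermal, chemokine and cytokine genes against the day after the last TPA application, in WT (blue) and KO (red) skin. Points are arrays, lines join the means of 3 arrays, bars are SD, and rings mark KO day 2 and WT day 4. Krt10, Krt1, Flg and Serpinb12 were low and Cxcl5, Ppbp, Il6 and Timp1 high at day 4 in both genotypes.

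Genes of other tissues of the skin also differed. Of 20 skeletal muscle genes, 14 were lower at an adjusted p under 0.05 and 1 was called lower, Pvalb, the calcium buffer parvalbumin, at 10.96, 10.25 and 10.53 against 12.58, 12.69 and 12.44 (log2 difference -1.99, SE 0.28, adjusted p = 2.4e-05). The summed markers Acta1, Myh4 and Ckm were 16715.6 to 18726.9 in KO day 2 skin and 27406.7 to 31772.2 in WT day 4 skin, and for 12 of the 20 genes the KO day 2 arrays lay below all 15 WT arrays, as for 1.51% of all probe sets. The low level was not particular to KO day 2 skin. The median difference of the muscle list between KO and WT skin was -0.09 at day 0 and -0.52 averaged over days 0, 1 and 6. At day 6 the array medians of the list were 10.49 to 10.89 in KO and 11.56 to 12.30 in WT skin. Elovl3, a fatty acid elongase of the sebaceous gland, was 7.99, 4.39 and 4.90 against 9.30, 10.04 and 8.44 (log2 difference -3.50, SE 0.64, adjusted p = 0.00048). Of 20 sebaceous gland genes Elovl3, Far2 and Krt79 were called lower, though only 1 was called lower when the 6 arrays were fitted alone, and the summed gland markers were 53.5 to 411 in KO day 2 skin and 483 to 1532 in WT day 4 skin. Of 9 melanocyte genes Dct, Tyrp1 and Pmel, which serve melanin synthesis, were called higher, Dct at 7.08, 8.60 and 8.70 against 5.68, 5.98 and 4.98 (log2 difference 2.58, SE 0.49, adjusted p = 0.00076). Of 14 adipocyte genes Pck1 was called higher (2.12, adjusted p = 0.0041), and the summed adipocyte markers were 29482.6 to 30493.3 against 19241.6 to 24279.3. How far the makeup of the skin samples contributed to the differences of other genes was not tested. The 14 reference genes had a median difference of 0.02, none was called, and 13 had matched levels.

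A few genes were also called between the genotypes on days outside the comparison. Averaged over days 0, 1 and 6, 8 probe sets (0.0222%) were called higher and 16 (0.0444%) lower in KO skin, and these included 1 of the 211 higher and 10 of the 162 lower probe sets. Cd209a, a lectin of dendritic cells, was 4.13, 4.83 and 4.94 in KO day 2 skin and 10.79, 10.36 and 10.95 in WT day 4 skin (log2 difference -6.07, SE 0.85, adjusted p = 2.3e-05), and the difference over days 0, 1 and 6 was -2.57 (adjusted p = 0.0048). The others of the 10 with a symbol were Lztfl1, Trip11, Galc, Trim34, Trim12a, Apod and 2010315B03Rik, the last of which was 5.76, 4.66 and 5.43 against 7.61, 7.42 and 7.43 (log2 difference -2.20, SE 0.30, adjusted p = 2e-05). The related Cd209e, at 5.77, 6.45 and 6.03 against 10.84, 10.75 and 11.33 (log2 difference -4.89), was not called over days 0, 1 and 6 (-1.46). For Apod and Trim12a only 1 of 2 probe sets was called, and the brighter one gave 0.46 for Apod and -0.09 for Trim12a. Klhl40, a muscle gene of the list of genes around D6, was 7.05, 7.07 and 6.84 against 10.45, 9.36 and 10.36 (log2 difference -3.07, SE 0.27, adjusted p = 6.1e-08), but was higher in KO day 4 skin than in WT day 2 skin (1.24, adjusted p = 0.0015).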

How the data were processed

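Whole back skin RNA was hybridized to Affymetrix Mouse430_2 arrays, 3 for each genotype at days 0, 1, 2, 4 and 6 (30 arrays). The authors deposited linear intensity values per probe set after RMA background correction, quantile normalization and summarization in GeneSpring GX. Quantile normalization gives all arrays nearly the same distribution, so that a change shared by most transcripts cannot be seen. Here log2 was taken, 64 control probe sets and the dimmest 20% by mean were left out, and 36029 of 45101 probe sets were fitted with limma 3.58.1 in R 4.3.3 (1 mean per group over all 30 arrays, eBayes, Benjamini-Hochberg over all probe sets). Of several probe sets for a gene, the one brightest on average was used. Array medians were 5.64 to 5.80, and the median SD within groups was 0.153 on the log2 scale. The number of arrays limits the precision, and an exact permutation test of 3 against 3 cannot go below p = 0.1. On simulated data the fit called 97 of 100 planted differences of 2 and 100 of 100 of 3 (log2), with 0 false calls. The simulated noise was drawn independently for each array, so outlying arrays and differences in tissue makeup were not covered. Genes named in the text are the 10 largest called differences either way, lead genes of each list, the largest called member of each list and D6, and others are named to complete a count or were chosen after their values were seen. Members and lists were chosen with earlier results of these data known. Alternatives concerned the arrays fitted, dim probe sets, fold, normalization, test, replicate number, hybridization controls and single arrays.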

Additional observations from a re-analysis of the deposited data

Results flagged for a closer look

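The change from day 2 to day 4 differed between the genotypes for 14 of the genes named (limma, KO change minus WT change on the log2 scale). Gm14446 (-3.39), Cxcl10 (-3.11), Isg15 (-2.97), Oasl1 (-2.83), Irf7 (-2.76), Ifit1 (-2.76) and Rsad2 (-2.49) had lower means at day 4 than at day 2 in KO skin and higher ones in WT skin, Irf7 changing by -1.83 in KO and 0.93 in WT skin (adjusted p of the difference 0.00011). For Cxcl3 (-3.34), Ccl4 (-2.39), Ccl3 (-2.72) and Arg1 (-3.15), the KO means moved by -0.58 to 0.84 and the WT means by 2.14 to 4.18. The means of Cxcl5 were higher at day 4 in both genotypes, by 4.56 in KO and 6.84 in WT skin (-2.28, adjusted p = 0.031). Ccl20, a ligand of Ccr6 (2.37, adjusted p = 0.025), and Il22, a T cell cytokine that acts on keratinocytes (3.83, adjusted p = 0.0026), differed the other way. Il22 was 5.83, 3.44 and 3.90 in KO day 2 skin, 3.55, 3.95 and 3.81 in WT day 4 skin, and 7.93, 6.32 and 6.96 in KO day 4 skin.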

How the results depend on the processing

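Of the 373 called probe sets, 362 of 367 calls were shared when only the 6 arrays were fitted, 369 of 373 without the filter on dim probe sets, 300 of 305 with the dimmest 50% left out, 367 of 386 after centring each array on its median, 370 of 377 after repeated quantile normalization, 368 of 368 with trend and robust eBayes, and 359 of 375 with hybridization control sets as a covariate. The count was 4468 without a fold threshold, 1141 above 2-fold, and 70 with the methods' t-test after Benjamini-Hochberg adjustment. For the difference of the changes from day 0 (442), the counts were 2417 and 1210 without a fold threshold and above 2-fold. Within 1.5-fold instead of 2-fold, matched levels in the sets that responded in KO day 4 skin went from 233 to 44 (higher) and from 298 to 68 (lower), and in those that responded in WT day 2 skin from 153 to 21 and from 83 to 21. Same-numbered replicates did not deviate together (correlations -0.18, 0.01 and -0.13), and with the replicate number as a block 374 probe sets were called, 372 of them shared, the difference of the changes had 438, the interferon-stimulated genes kept 13 called higher, and none of the named genes changed its call. With the mean of all probe sets of a gene, Apod went from 0.46 to -2.08. With the days exchanged, the opposite calls stayed between 80 and 88 of the 211 and between 69 and 79 of the 162, and the calls of the same direction between 7 and 11 and between 9 and 14, under median centring, the replicate block and omission of each KO day 4 or WT day 2 array. Single arrays decided the calls of Camp and Ltf (above), of Lor, at 1.72 (adjusted p = 0.053) and 1.20 (adjusted p = 0.14) without WT day 4 replicates 1 and 3 in turn, and of Ngp, at 3.23 (adjusted p = 0.010) without the first KO day 2 array and 2.84 (adjusted p = 0.049) without the third WT day 4 array. Ccl3 passed 3-fold without KO day 2 replicate 1 or 3 or WT day 4 replicate 3 (1.59 to 1.77), as did Ccl2 (-1.61) and Myh4 (-1.60) without the first KO day 2 array, and Vwf (1.57 and 1.54) dropped below it without KO day 2 or WT day 4 replicate 3 and Pdpn (-1.57) without the latter. Far2 had an adjusted p of 0.053 with only the 6 arrays. The number of arrays limits the detection of small differences.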
